A study of Drosophila melanogaster with 3 samples.

Results

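The genes described here encode 10 proteins that bind or bridge insulators and interbands of Drosophila chromosomes: Chro, pzg, Cp190, mod(mdg4), BEAF-32, CTCF, su(Hw), Trl, Dref and M1BP. They were taken by symbol, with no cutoff on a measured value, and are 10 of 13945 protein-coding genes on chromosomes 2L, 2R, 3L, 3R, 4 and X. The genes were chosen with earlier results of these data known, so the counts below are descriptions only. The values come from chromatin immunoprecipitation and sequencing (ChIP-seq) of whole embryos of both sexes, 0 to 24 h old, from a stable fly line with a transgene that fuses GFP to the C terminus of the RA product of chif (chiffon), precipitated with an antibody against GFP. The only group was this line, with 3 biological replicates, and libraries from untagged flies or input DNA were not analysed here. The labels do not say which promoter drove the transgene or whether the native chif gene was intact. Whole embryos mix all cell types, so the share of cells behind a peak cannot be told.

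Insulators are DNA elements that limit contact between neighbouring chromatin domains, and in Drosophila several DNA-binding proteins mark them and recruit shared cofactors. Interbands are the open, lightly stained regions of polytene chromosomes, where promoters of broadly active genes lie and where Chro and pzg (also called Z4) are found. The chif gene encodes a relative of Dbf4, which activates the replication kinase Cdc7, and a further product that belongs to a histone acetyltransferase complex with Gcn5.

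The data were 5 lists of genomic regions in the build dm6, each with the authors' signal value and summit. The list filtered by irreproducible discovery rate (IDR), a measure of recurrence between replicates, held 3684 peaks with signal values of 92.4 or more. The list made from all 3 replicates together, called pooled here, held 25066 regions with signal values of 34.2 or more, and it contained all 3684 IDR peaks unchanged. The IDR peaks described below had the same rank in both lists, down to rank 3386. Membership of the IDR list thus followed pooled signal value at least that far. It does not show that a given peak recurred in every replicate. Each replicate list held 30000 regions, peaks and background together, so its 3684 highest regions were taken for comparison. At the last of these the −log10 q was 0.735, 2.69 and 2.91 in replicates 1 to 3. The depth of the replicates is unknown, because the lists carry no read counts. The signal value has no stated scale and is compared within a list only. Coordinates are dm6 and gene models are those of Ensembl.

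Of the 10 genes, the IDR list placed a summit at most 1000 bp from a start of 7 (Chro, pzg, Cp190, BEAF-32, Trl, Dref and M1BP), against 17.6% of all protein-coding genes. With the gene body included, mod(mdg4) joined them, so that 8 of the 10 genes had an IDR summit, against 20.9% of all protein-coding genes. Longer genes hold more regions, and this comparison was not matched for length. The mod(mdg4) gene spans 26556 bp and Trl 13121 bp, against a median of 2166 bp over protein-coding genes. Only BEAF-32 (2162 bp) and M1BP (1909 bp) of the 10 genes lay below that median. CTCF and su(Hw) had none. A pooled region of any rank lay within 1000 bp of a start of all 10 genes, against 56.3% of all protein-coding genes. The start-site IDR peak was among the highest regions of all 3 replicates for 5 genes (Chro, pzg, Cp190, Trl and Dref), against 11.4% of all protein-coding genes. A highest region lay within 1000 bp of a start of 7 of the 10 genes in replicate 1 (background 17.1%), 6 in replicate 2 (background 18.0%) and 6 in replicate 3 (background 17.0%). The mean was 6.33 ± 0.577 of the 10 genes, against 17.4% ± 0.536 of all protein-coding genes (SD, n = 3 replicates). The set of genes was not identical between replicates: M1BP was counted in replicate 1 alone, BEAF-32 in replicates 1 and 2, and mod(mdg4) in replicate 3 alone. Many protein-coding genes share a peak with a neighbour, so these shares are not made of independent genes.

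The 10 loci held 37 pooled regions, of which 13 were IDR peaks (35.1%), against 3140 IDR peaks among 20483 pooled regions in protein-coding loci (15.3%). A locus here is the gene body and 1000 bp around each start. Of the 13 peaks, 10 lay within 1000 bp of a start of their gene and 3 farther away. The strongest start-site region had a median signal value of 157 over the 10 genes, against 62.2 over the 7849 protein-coding genes that had one. The 10 genes were spread from near the top of that distribution to near its bottom. For Chro, 0.0892% of those genes had a start-site region as strong or stronger, and for Dref, Cp190 and Trl the figures were 6.27%, 6.65% and 6.79%. Those of pzg, BEAF-32 and M1BP were 11.1%, 23.2% and 29.4%, and those of mod(mdg4), CTCF and su(Hw) were 45.4%, 52.8% and 91.2%.

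**Figure D1:**
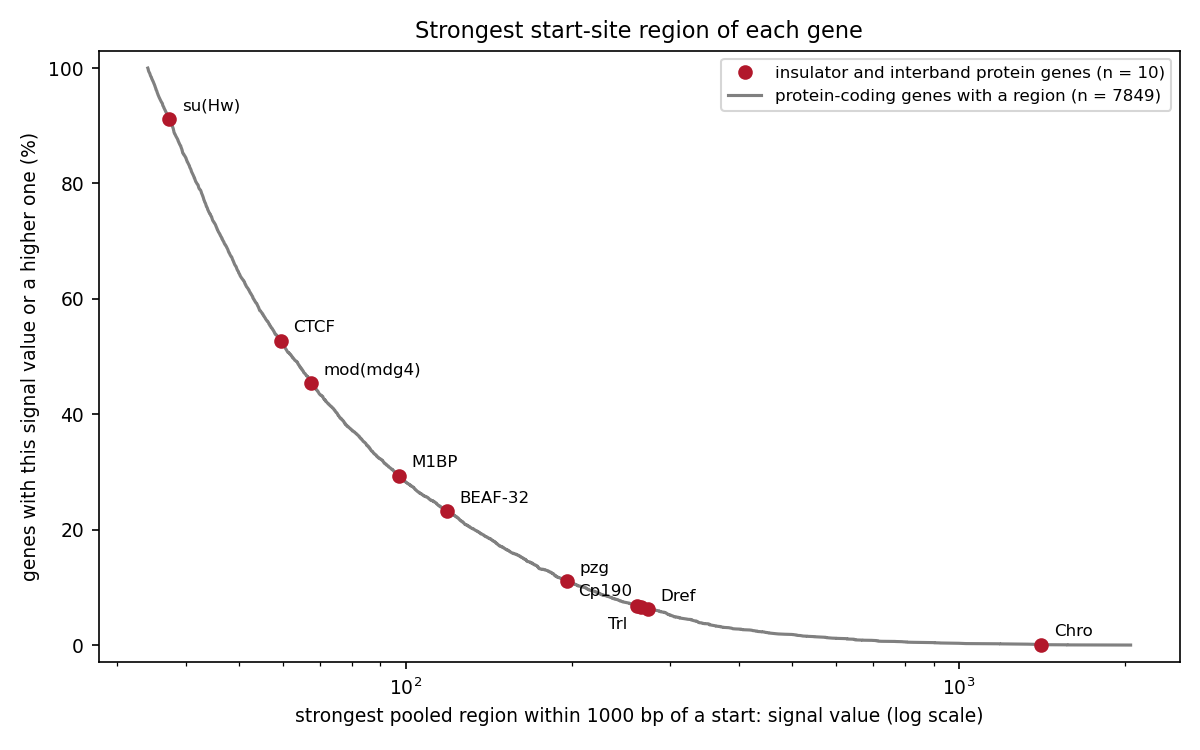
Signal value of the strongest pooled region within 1000 bp of a start (horizontal axis, log scale) against the percentage of genes with that value or a higher one (vertical axis), with the 10 insulator and interband protein genes as red points and the 7849 protein-coding genes with a region as the grey line. Chro stands far to the right at 1409, and su(Hw) lies near the left end at 37.4.

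**Figure D2:**
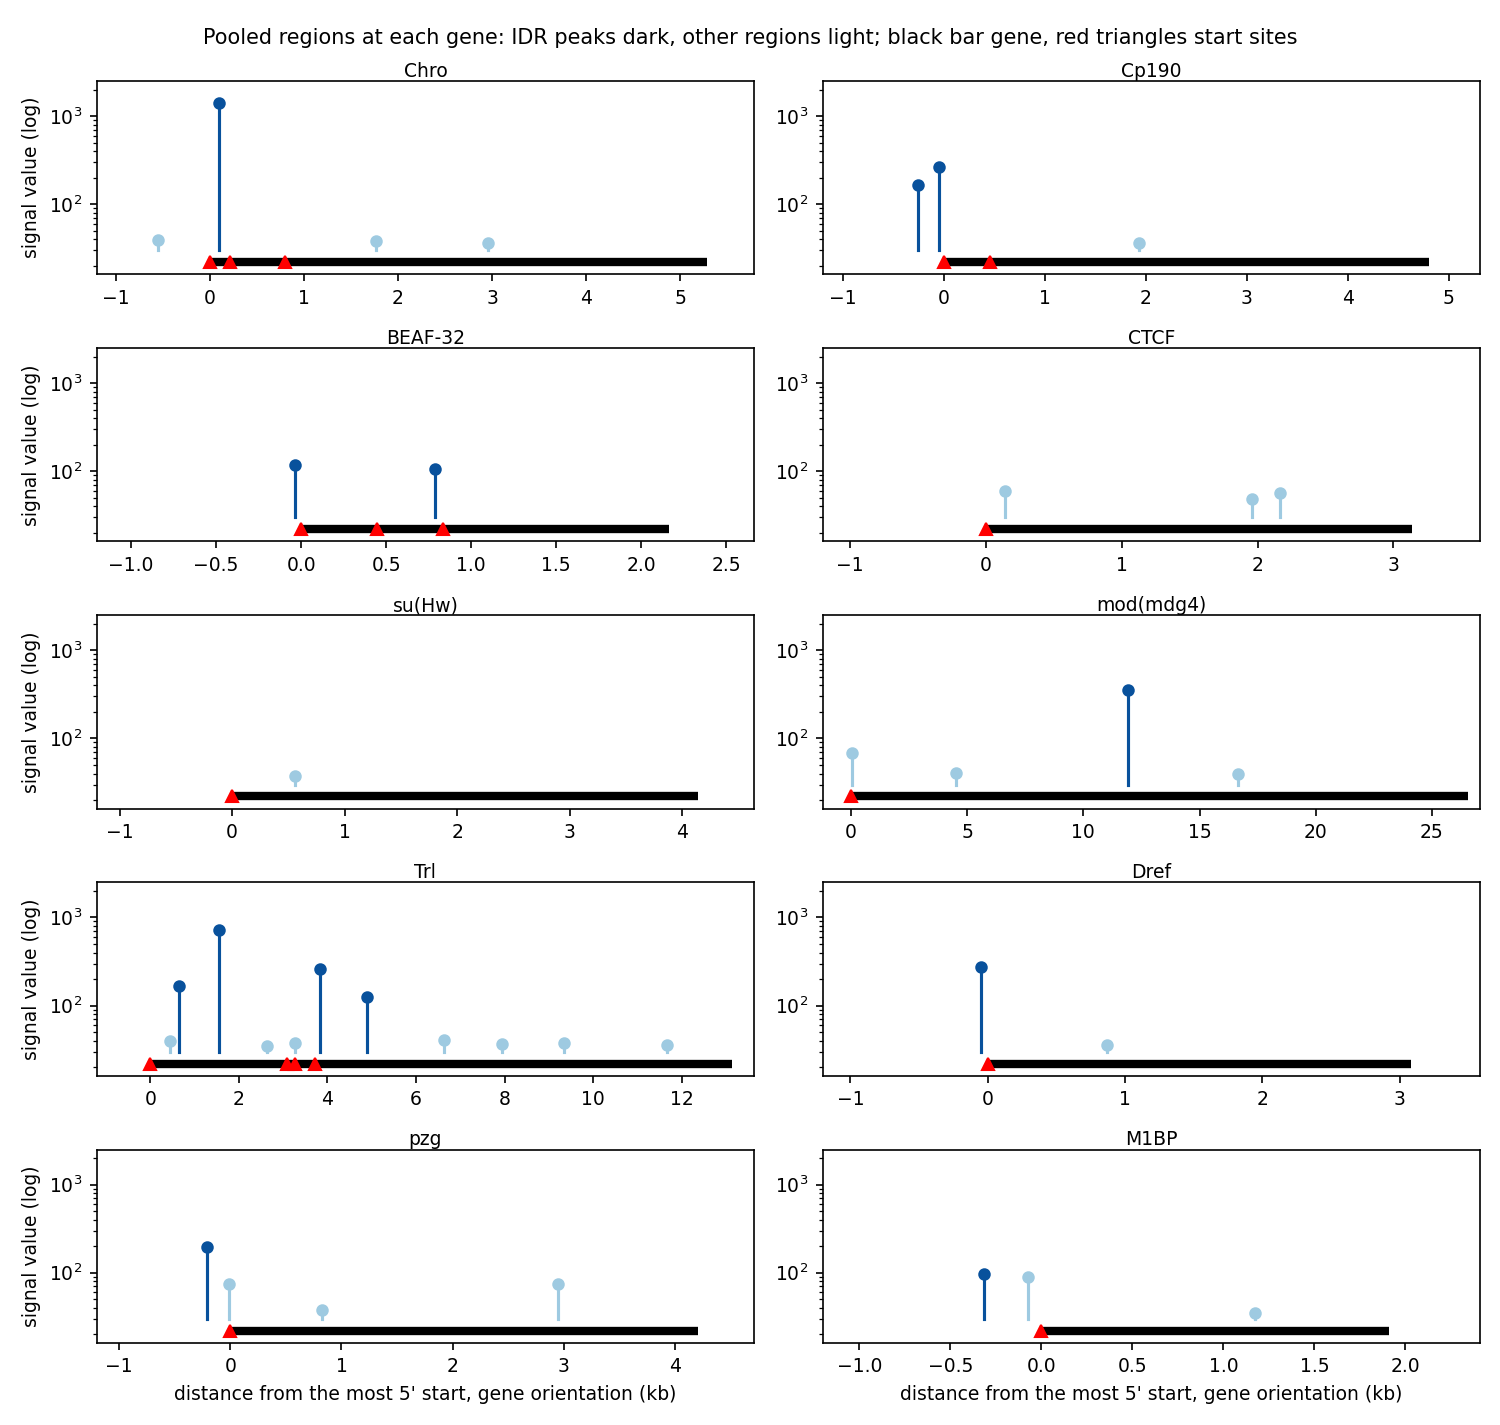
Signal value (vertical axis, log scale) of each pooled region at the 10 genes by the distance of its summit from the most 5′ start in gene orientation (horizontal axis, kb). Dark stems are the 13 IDR peaks and light stems the other 24 regions, the black bar is the gene and red triangles are its start sites; the strongest stem of mod(mdg4) stands far inside the gene.

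Chro (Chromator, FBgn0044324, minus strand, 3L from 22873702 to 22878984) encodes a chromodomain protein of interbands that also takes part in the spindle matrix. It had the strongest peak of the 10 genes and the peak of rank 9 in the IDR list, chr3L:22878730-22879089, with a signal value of 1409. The summit lay in the 5′ UTR, 99 bp downstream of the outermost start. The overlapping region ranked 6 in replicate 1, 9 in replicate 2 and 11 in replicate 3, with signal values of 472, 494 and 444, and the 3 summits lay within 8 bp of the pooled one. All 3 replicates thus placed this peak close to the top of their lists, on the same position. The peak was shared with Ssl1, a subunit of the transcription factor TFIIH, which is read in the opposite direction from a start 105 bp away and whose start lay 204 bp from the summit. The stretch between the starts is shown first because it is the exon-free part of the peak, and the site below it holds a match to the BEAF-32 core motif, in capitals, which began 7 bp from the summit. Sequences here and below are read from the RefSeq copy of the genome, build dm6.
Chro to Ssl1 gap, chr3L:22878985-22879088, plus strand: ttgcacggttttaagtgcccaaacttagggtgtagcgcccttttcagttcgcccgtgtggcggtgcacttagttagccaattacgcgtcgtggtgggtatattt
Chro 5′ UTR site, chr3L:22878880-22878909, plus strand: tgtattgcctgtCGATAgctttaaactaac
The other 3 pooled regions of Chro had signal values from 36.1 to 39.4, and the overlapping regions ranked from 5157 to 26888 in replicates 2 and 3, with none in replicate 1. The noncoding gene asRNA:CR45970 starts 860 bp from the summit of 1 of them. Under the measure of likeness used, the distance in log2 rank over the 3 replicates, Ssl1 had a distance of 0 because it shares the region. CG8079 and mRpL41, which share another region ranked 7, 6 and 12, followed at 0.638.

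The gene pzg (putzig, FBgn0259785, plus strand, 3L from 21286099 to 21290310) encodes the zinc finger protein Z4, a partner of Chro at interbands that also works with Dref. Its IDR peak, chr3L:21285694-21286089, had a signal value of 196 and rank 1064. Replicates 1, 2 and 3 ranked it 409, 1707 and 2175, with signal values of 95.9, 56.9 and 46.8. Replicate 1 ranked it highest, and all 3 replicates kept it among their highest regions. The summit lay at -207 bp from the pzg start and 70 bp from that of CG12974, which is read the other way from 137 bp away, so the nearer start was that of CG12974. The gap between the starts within the peak and the site with the BEAF-32 core, as its reverse complement in capitals and 28 bp from the summit, are shown because the match lies on the CG12974 side.
pzg to CG12974 gap, chr3L:21285963-21286089, plus strand: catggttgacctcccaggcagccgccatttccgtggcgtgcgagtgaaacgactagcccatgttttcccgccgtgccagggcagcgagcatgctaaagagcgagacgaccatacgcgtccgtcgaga
CG12974 5′ UTR site, chr3L:21285908-21285937, plus strand: aaataattacgtTATCGtaatgaacggcaa
Of 3 further pooled regions, 1 adjoined the peak with its summit at -8 bp (signal value 75.0, rank 5088), and 2 had summits in coding exons, at 822 bp (37.9) and 2945 bp (73.7) from the start. The region at 2945 bp ranked 5228 in the pooled list, 4853 in replicate 2 and 8098 in replicate 3, and overlapped none of the regions of replicate 1.

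Among the cofactors, Cp190 (FBgn0000283, minus strand, 3R from 15270432 to 15275241) encodes the BTB protein that most fly insulator proteins recruit. It had a pair of overlapping IDR peaks upstream of its outer start. The nearer, chr3R:15275094-15275489, had a signal value of 266, rank 583 and a summit at -51 bp, and its regions ranked 926, 473 and 419 in replicates 1, 2 and 3. The farther, chr3R:15275297-15275692, had a signal value of 166, rank 1437 and a summit at -254 bp, only 27 bp from the start of CG4338, a gene read the other way from a start 281 bp away. Its nearest regions ranked 2905 in replicate 1 and 1377 in replicate 3. In replicate 2 a single region of rank 473, with its summit between both, overlapped the pair, so replicate 2 does not separate them. The window upstream of the outer start, around the nearer summit, holds 1 further match to the BEAF-32 core, in capitals. The site across the outer start, 54 bp from the summit, holds the motif of Dref, in capitals, with the core of the BEAF-32 motif in both directions inside it.
Cp190 upstream window, chr3R:15275242-15275441, plus strand: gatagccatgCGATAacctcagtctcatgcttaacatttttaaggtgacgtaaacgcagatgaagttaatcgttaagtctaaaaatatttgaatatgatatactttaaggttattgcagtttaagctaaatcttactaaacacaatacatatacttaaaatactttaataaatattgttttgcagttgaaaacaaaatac
Cp190 start site, chr3R:15275227-15275256, plus strand: cgctcggcagcTATCGATAgccatgcgata
The third pooled region had its summit in a coding exon, with a signal value of 36.2. The noncoding gene asRNA:CR46081 starts 925 bp from the nearer summit and 722 bp from the farther.

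For mod(mdg4) (modifier of mdg4, FBgn0002781, minus strand, 3R from 21350846 to 21377401) the peak lay inside the gene. It encodes a large family of BTB proteins, 1 of which joins su(Hw) and Cp190 at gypsy insulators, and it makes them by trans-splicing of a common 5′ part to 3′ parts transcribed from their own promoters on both strands. Its IDR peak, chr3R:21365444-21365555, had a signal value of 354 and rank 300, and its summit was in an intron 11909 bp downstream of the start. Replicates 1, 2 and 3 ranked it 344, 192 and 513, with signal values of 102, 157 and 97.7 and summits within 3 bp of the pooled one. All 3 replicates placed it in their highest regions. The annotation lists pre-mod(mdg4) genes for the trans-spliced 3′ parts, and the summit lay 4 bp from the start of pre-mod(mdg4)-E, 117 bp from the start shared on the opposite strand by pre-mod(mdg4)-U, -V, -W, -X, -Y, -AD and -AE, and 202 bp from that of pre-mod(mdg4)-C and -AB. By symbol these are other genes, so the count of start-site peaks does not assign the peak to mod(mdg4). At its own start mod(mdg4) had a pooled region with a signal value of 67.5, rank 6007 and a summit at 39 bp. No region of replicate 1 overlapped it, and it ranked 10968 in replicate 2 and 3595 in replicate 3. The exon-free window between the opposed starts and a site 59 bp from the summit are shown. The capitals of the site are a match to the core searched for su(Hw). This is the only IDR peak of the 10 loci with that core within 100 bp of its summit, but the match lies outside the 112 bp peak.
mod(mdg4) intronic window, chr3R:21365489-21365592, plus strand: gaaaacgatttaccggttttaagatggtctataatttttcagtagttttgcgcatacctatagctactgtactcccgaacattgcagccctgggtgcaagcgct
mod(mdg4) intronic site, chr3R:21365421-21365450, plus strand: tatagcaaaataTGCATAttggtattggta

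Among the DNA-binding proteins, Trl (Trithorax-like, FBgn0013263, minus strand, 3L from 14747929 to 14761049), which encodes GAGA factor, had the most regions: 11 pooled regions, of which 4 were IDR peaks. The strongest, chr3L:14759346-14759691, had a signal value of 719 and rank 53, and lay in an intron at -1542 bp from the nearest start, between the outermost start and the other 3. Its regions ranked 79, 37 and 61 in replicates 1, 2 and 3, with signal values of 200.2, 293 and 226. It stood close to the top of each replicate list, above every start-site peak of the 10 genes except that of Chro. The peak chr3L:14757021-14757416 (signal value 262, rank 603) lay in the 5′ UTR 117 bp downstream of an inner start and ranked 256, 1195 and 887. The peak chr3L:14760201-14760596 (166, rank 1441) lay in an intron 650 bp from the outermost start and ranked 1455, 991 and 2475. The peak chr3L:14755950-14756345 (125, rank 2325) lay in an intron 1188 bp from a start, and the highest region overlapping it ranked 2237, 1970 and 2044. All 4 peaks overlapped highest regions in all 3 replicates. The other 7 regions had signal values from 34.8 to 40.9. CG42507 shares 1 inner start with Trl in the annotation, and that start lay 743 bp from the summit of the 5′ UTR peak. The window around the strongest summit is shown as the strongest region away from a start, and it held none of the 6 motifs searched. The exon-free stretch of the 5′ UTR peak lies beyond 100 bp from the summit, with 9 matches to the GAGA core, written on the plus strand as its reverse complement in capitals, most of them overlapping in 1 run and the last apart from it.
Trl intronic window, chr3L:14759404-14759603, plus strand: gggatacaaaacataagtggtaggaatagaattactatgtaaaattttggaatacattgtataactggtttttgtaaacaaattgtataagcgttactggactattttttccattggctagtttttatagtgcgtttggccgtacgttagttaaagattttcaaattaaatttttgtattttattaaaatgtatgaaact
Trl exon-free stretch, chr3L:14757337-14757416, plus strand: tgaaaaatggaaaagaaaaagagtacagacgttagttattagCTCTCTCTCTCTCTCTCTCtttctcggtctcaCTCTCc

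**Figure D3:**
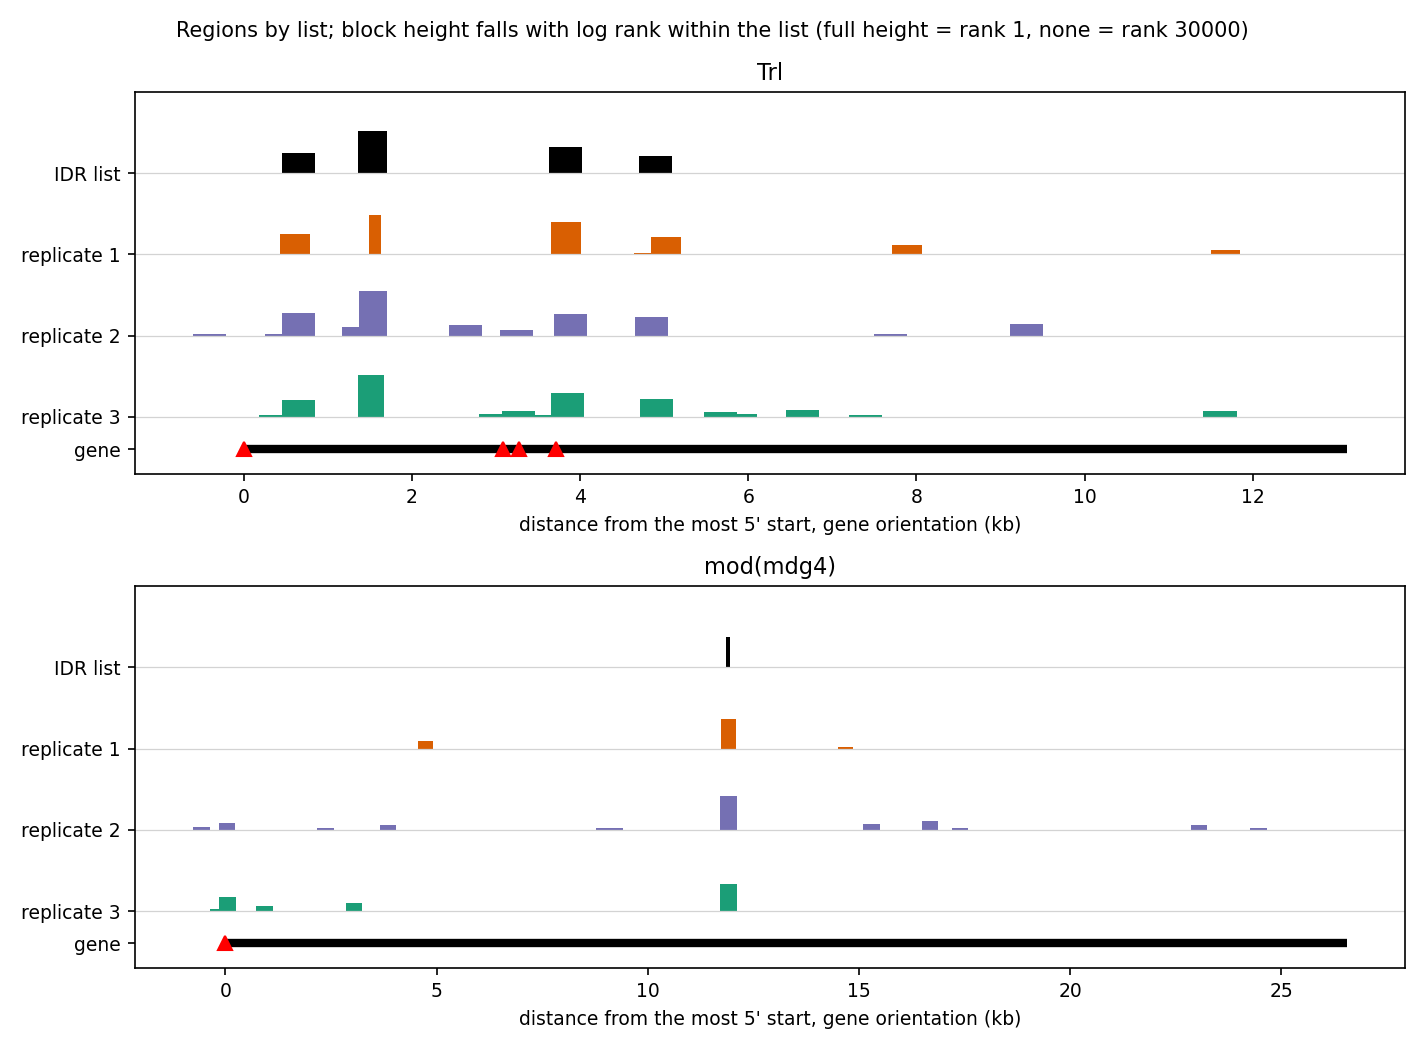
Regions of the IDR list and the 3 replicates at Trl and mod(mdg4) by distance from the most 5′ start in gene orientation (horizontal axis, kb), with block height falling with the log of the rank within the list, the gene as a black bar and start sites as red triangles. Each of the 4 IDR peaks of Trl and the single one of mod(mdg4) has a block from a highest region in each replicate. The blocks of the weakest Trl peak are low, and the lowest blocks of the figure differ between replicates.

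Dref (DNA replication-related element factor, FBgn0015664, minus strand, 2L from 9964147 to 9967229) binds the DRE element of replication and housekeeping promoters. Its IDR peak, chr2L:9967083-9967478, had a signal value of 274, rank 553 and a summit at -52 bp. Its regions ranked 661, 509 and 494 in replicates 1, 2 and 3, with signal values of 75.4, 104 and 99.3. The 3 ranks lay close together. RpL13, a protein of the large ribosomal subunit, starts in the opposite direction 84 bp away, and its start, 32 bp from the summit, was the nearer. The whole gap between the starts is shown, with the core motif of BEAF-32 in capitals.
Dref to RpL13 gap, chr2L:9967230-9967312, plus strand: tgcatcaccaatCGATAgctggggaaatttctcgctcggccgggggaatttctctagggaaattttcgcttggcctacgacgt
A further pooled region of Dref had its summit in a coding exon 866 bp from the start, with a signal value of 35.7.

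M1BP (Motif 1 Binding Protein, FBgn0037621, minus strand, 3R from 8729790 to 8731698), a zinc finger protein of paused and housekeeping promoters, had the weakest start-site IDR peak of the 10 genes. That peak, chr3R:8731814-8732209, had a signal value of 97.4 and rank 3386, and its summit lay at -314 bp from the M1BP start and 79 bp from the opposed start of CG8202, 393 bp away. It ranked 1791 in replicate 1, and the highest overlapping regions ranked 6505 in replicate 2 and 4670 in replicate 3, outside their highest regions. Replicate 1 alone thus placed it there. A second pooled region with its summit at -74 bp had a signal value of 89.3 and rank 3874, just outside the IDR list, and ranked 6505 and 4670 in replicates 2 and 3 with summits within 7 bp of the pooled one. In those replicates the start-proximal region was the stronger of the pair. The exon-free window of the IDR peak, on the side away from the M1BP start, held none of the 6 motifs.
M1BP upstream window, chr3R:8731891-8732090, plus strand: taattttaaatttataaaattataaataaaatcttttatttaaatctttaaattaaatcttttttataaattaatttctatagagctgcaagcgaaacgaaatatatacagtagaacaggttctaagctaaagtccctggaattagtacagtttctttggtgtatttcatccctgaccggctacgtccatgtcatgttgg

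BEAF-32 (FBgn0015602, plus strand, 2R from 14770469 to 14772630), the founding protein of the scs′ boundary, had 2 IDR peaks. The peak chr2R:14770235-14770630 had a signal value of 119, rank 2511 and a summit at -36 bp from the first start. The peak chr2R:14771059-14771454 had a signal value of 105, rank 3002 and a summit at -44 bp from a later start. The first ranked 1486, 2195 and 4292 in replicates 1, 2 and 3, and the highest region overlapping the second ranked 2172, 2524 and 4580. Replicate 3 placed both outside its highest regions. A noncoding gene on the opposite strand, asRNA:CR42254, overlaps the locus, with starts 163 bp and 38 bp from the summits.

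CTCF (FBgn0035769, minus strand, 3L from 7353578 to 7356713), the fly relative of the vertebrate insulator protein of the same name, had no IDR peak. Its start-site pooled region had a signal value of 59.5, rank 7509 and a summit at 138 bp, and it ranked 3961, 7683 and 18146 in replicates 1, 2 and 3. The noncoding gene asRNA:CR45822 starts 574 bp from that summit. The other 2 pooled regions, 56.1 and 48.0, had summits in coding exons and overlapped regions of replicate 3 alone. The gene su(Hw) (suppressor of Hairy wing, FBgn0003567, minus strand, 3R from 14304455 to 14308589), which encodes the zinc finger protein of gypsy insulators, had 1 pooled region of signal value 37.4, rank 20673, with its summit 561 bp from the start. No region of replicate 1 overlapped it, and the nearest ranked 13741 in replicate 2 and 9633 in replicate 3. Neither gene had a highest region in any replicate.

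**Figure D4:**
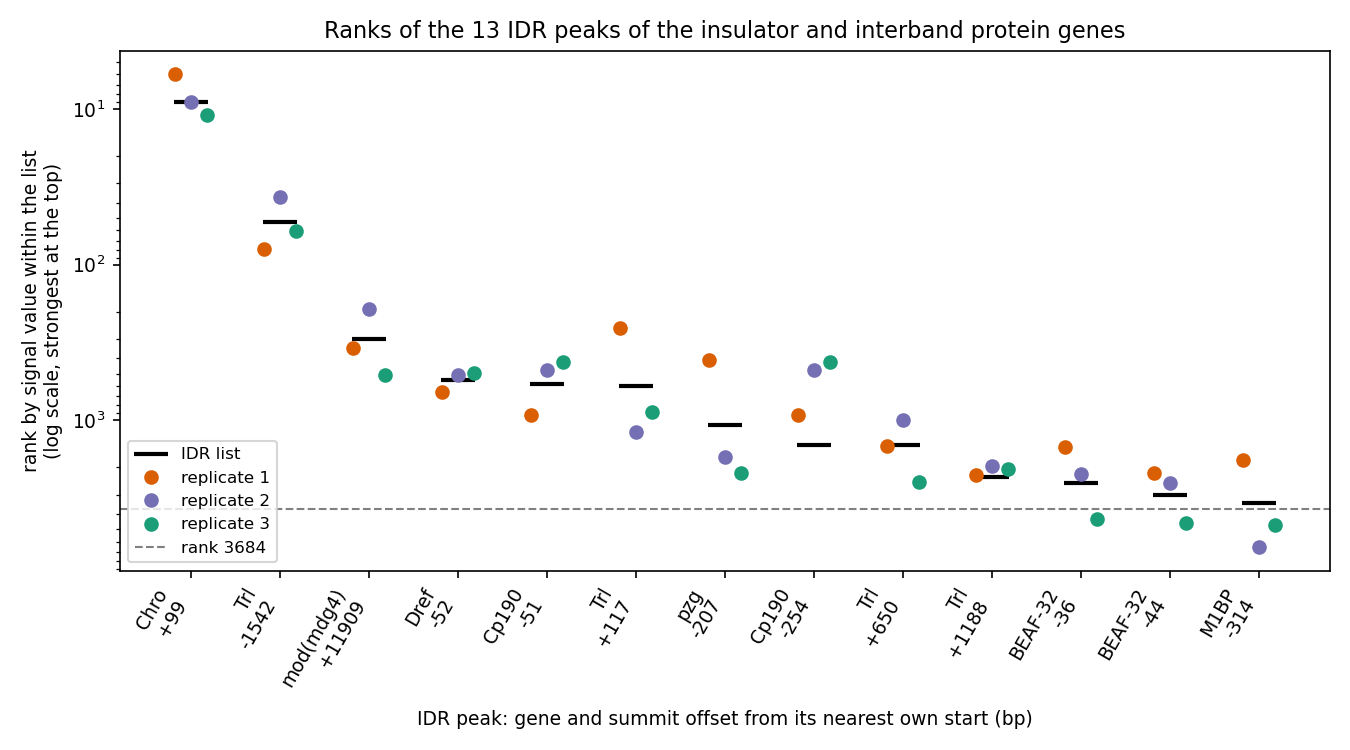
Rank by signal value (vertical axis, log scale, strongest at the top) of the 13 IDR peaks in the IDR list (black bars) and of the highest overlapping region in each replicate (coloured points), labelled by gene and summit offset in bp, with rank 3684 as a dashed line. The Chro and mod(mdg4) peaks and the strongest Trl peak lie far above the line in all 3 replicates. The other Trl peaks lie closer to it, the weakest at ranks 2237, 1970 and 2044 in replicates 1, 2 and 3. The 3 peaks at the right, of BEAF-32 and M1BP, fall below the line in 1 or 2 replicates.

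Positions of the peaks and of the neighbouring starts were compared next. The counts by opposite-strand start were added after seeing the data. Of the 10 genes, 7 had an opposite-strand protein-coding start within 1000 bp, against 36.9% of all protein-coding genes. Among those 7, all but su(Hw), which faces Polr2I, a subunit of RNA polymerase II, from 500 bp away, had a start-site IDR peak: 6 of 7, against 29.4% of the 5141 protein-coding genes with such a neighbour. Among the 3 without such a neighbour, BEAF-32 alone had a start-site IDR peak: 1 of 3, against 10.7% of 8804. The neighbour of Trl was Mgat4a, 979 bp from the outermost Trl start. The Trl start-site summits lay over 1000 bp from the Mgat4a start, so those peaks were not shared with it. At 4 of the 10 start-site peaks the nearest protein-coding start belonged to the neighbour: the farther peak of Cp190 and the peaks of Dref, pzg and M1BP. Of the 10 peaks, 7 had the summit upstream of the nearest start of their gene. Neither count has a share over all start-site IDR peaks beside it, so neither can be read as particular to these genes. Of the 13 IDR peaks, 10 overlapped highest regions in all 3 replicates, against 2178 of all 3684 (59.1%).

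Summits of the IDR peaks and of the weaker regions in the 10 loci fell in different parts of genes. None of the 13 IDR peaks had its summit in a coding exon, and 17 of the other 24 pooled regions did (70.8%). Over all protein-coding loci the summit was in a coding exon for 21 of 3140 IDR peaks (0.669%) and for 4998 of 17343 other pooled regions (28.8%). The lack of coding-exon summits among the IDR peaks is thus close to the share over all loci and not particular to these genes. Of the highest regions in the 10 loci none of 13, 11 and 11 had its summit in a coding exon in replicates 1, 2 and 3. Of the lower-ranked ones 10 of 14, 21 of 40 and 14 of 32 did. The counts by replicate have no share over all loci beside them. They are also not independent of the pooled list, which was made from the same replicates. These counts include coding exons of overlapping genes and of other isoforms.

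Of the proteins encoded here, 6 have a known binding motif that was searched on both strands within 100 bp of each summit. The core of BEAF-32, CGATA, was held by 5 of the 10 start-site peaks of these genes, namely by 1 peak each of Chro, Cp190, BEAF-32, Dref and pzg, against 34.7% of all 1967 start-site IDR peaks, 28.0% of the 7538 other pooled start-site regions and 37.1% of 19252 protein-coding start sites. The DRE of Dref, TATCGATA, which is its own reverse complement and contains CGATA on both strands, was held by 1 of the 10 peaks, the nearer of Cp190, against 6.05%, 3.49% and 6.45% of the same sets. The GAGA core of Trl, GAGAG, was held by none of the 10, against 21.6%, 25.0% and 25.0%. The M1BP motif GGTCACACT, taken as the motif 1 core, was held by none of the 10, against 2.75%, 2.20% and 4.42%, and the CTCF core AGNNGGCGC by none, against 3.56%, 3.70% and 1.92%. The su(Hw) core TGCATA was held by none of the 10 start-site peaks. It lay within 100 bp of the summit of the mod(mdg4) intronic peak, as 2 overlapping matches outside the peak itself. The shares were 14.4%, 9.62% and 7.77% of the same sets and 16.2% of all 3684 IDR peaks. A match describes these letters, and its absence says only that they are not in this window. The GC content of the windows averaged 35.1% over the 13 member peaks, against 37.2% over all start-site IDR peaks, 45.7% over the other pooled start-site regions and 42.3% over all start sites, and its part in these shares was not tested.

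**Figure D5:**
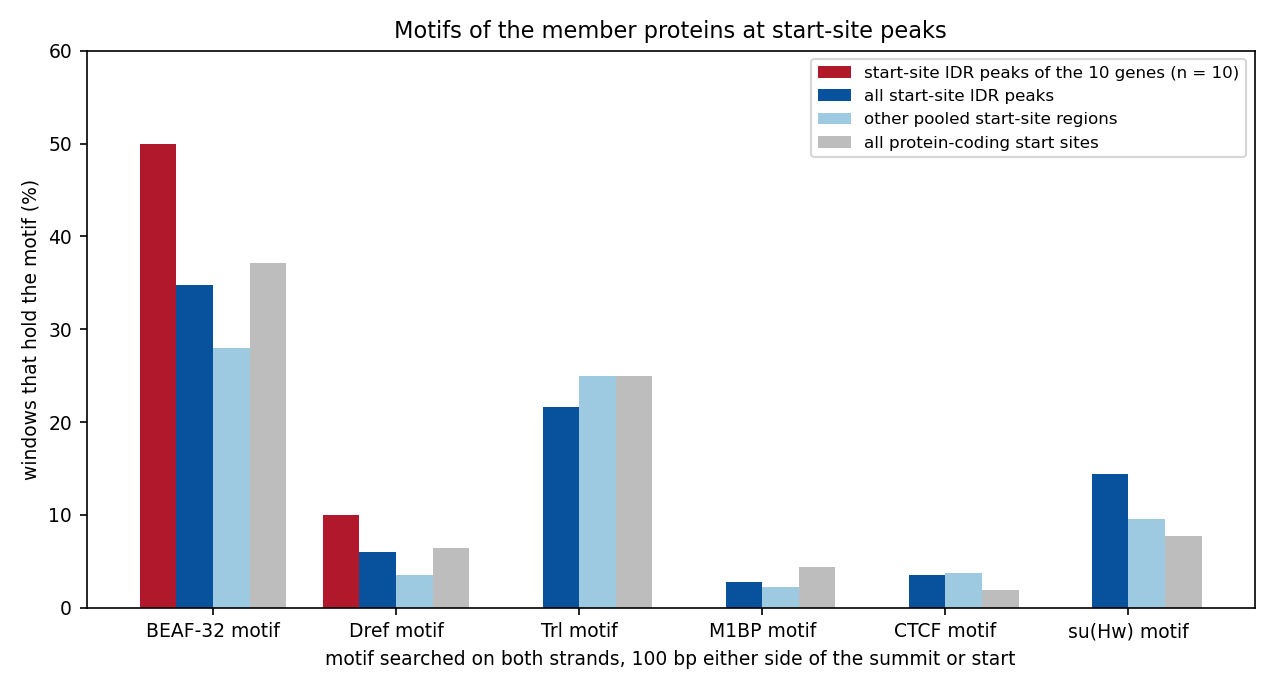
Percentage of windows that hold each of the 6 motifs (bars, from 0) at the 10 start-site IDR peaks of these genes, at all start-site IDR peaks, at the other pooled start-site regions and at all protein-coding start sites. The peaks of these genes have bars for the BEAF-32 and Dref motifs alone, made of 5 peaks and 1 peak.

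A list of 30 genes of related function, of which 29 matched the annotation, was read in the same way. Start-site IDR peaks, by the same 1000 bp rule, were found at 9 of the 29 (31.0%), against 7 of the 10 genes above and 17.6% of all protein-coding genes. By the role given in the list, these were 5 of 9 interband and housekeeping promoter genes, 3 of 3 genes listed as GAGA-related and 1 of 3 insulator cofactors. There were 0 of 10 insulator DNA-binding genes and 0 of 4 cohesin genes. The interband group comprised Nup98-96, a nucleoporin precursor (signal value 201), row, a zinc finger partner of HP1c (195), E(bx), the large subunit of the NURF remodeller (142), JIL-1, the histone H3 kinase of interbands (140.4), and Top2, topoisomerase 2 (113). The genes listed as GAGA-related were lolal (208), psq (138) and fs(1)h (166). The last is the fly BET bromodomain gene, and its place in this group is that of the list alone. The cofactor was shep (174), an RNA-binding protein that counters gypsy insulators. The strongest start-site peaks of Top2, psq and fs(1)h were not among the highest regions of all 3 replicates, and those of the other related genes named were. Top2 ranked 4408 in replicate 2 and fs(1)h 4088 in replicate 3, and no region of replicate 1 was matched to the psq peak. Of the 10 insulator DNA-binding genes, 5 had a pooled start-site region, against 56.3% of all protein-coding genes. Their signal values ran from 43.9 (dwg) to 79.4 (pita). The cohesin gene with the strongest region was SMC1 (69.4).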

How the data were processed

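Whole-embryo anti-GFP ChIP-seq of 3 biological replicates was read from the authors' dm6 narrowPeak lists. Per the deposited file listings, each replicate list and the pooled list came from alignments and a control, and these 4 lists gave the IDR list. Aligner, peak caller and the IDR cutoff: not given in the sources used here. Each region's signal value is the authors' score, of no stated scale, the −log10 q is the authors' deposited value, and the summit offset in bp is theirs. The dm3 lists were not used.

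Gene models were Ensembl release 115 (BDGP 6.54). A summit was at a start where it lay within 1000 bp of any annotated transcript start of the gene. Overlap needed 1 bp. In each replicate the 3684 highest regions matched the length of the IDR list. A pooled region was matched to the overlapping replicate region with the nearest summit, except where the highest overlapping region is named. At those peaks the nearest-summit region ranked 27203 (Trl, 1188 bp from a start) and 11609 (second BEAF-32 peak) in replicate 1. For the M1BP IDR peak it ranked 9393 in replicate 2 and 5515 in replicate 3. Recurrence was judged by the highest overlapping region. The members, motifs and related genes (1 of 30, SA, had no unique match) were chosen with earlier results of these data known. The counts by opposite-strand start and by coding exon were added after seeing the data. All members were named with every gene that starts within 1000 bp of a start-site summit, related genes where they had a start-site IDR summit or mark the range, and the 3 genes nearest to the strongest member in log2 rank. There is 1 group, so no test was made, and no interval is given because depth is unknown. The counting rules were tested on simulated data for 200 genes. Python 3.11.15, pandas 2.3.3, NumPy 2.4.6 and matplotlib 3.10.9 were used. Sequences come from the RefSeq dm6 genome; those of chromosome 2R are not printed.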

Additional observations from a re-analysis of the deposited data

How the results depend on the processing

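Of 67 alternatives, 13 moved the value and 54 did not, where a move is over 1.5 times for a count and 1 SD or more for the mean by replicate. The 54 is not a measure of stability. A count of 7 or more of 10 genes cannot rise over 1.5 times, and a fall from 7 to 5 is scored as no move. The settings without 1 replicate also give the same genes for the start-site count and the recurrence count. With a summit counted only for its nearest start, 4 of 10 genes had a start-site IDR peak (Chro, Cp190, BEAF-32 and Trl). The same rule called 12.7% of all protein-coding genes. Those recurring in all 3 replicates fell to 3, against 8.18% of all protein-coding genes. The mean by replicate fell to 4 ± 1 of 10. Under this rule the peaks of Dref, pzg and M1BP belong to the neighbour. The mean by replicate was 7 with a 2000 bp window, 5.33 ± 1.53 with 1842 highest regions per replicate, 7.67 ± 0.577 with 2 times as many and 9.67 ± 0.577 with all regions (SD, n = 3). With the 1842 strongest IDR peaks, 5 of the 29 related genes had a start-site peak, against 10.1% of all protein-coding genes. These means have no share of all protein-coding genes beside them, so they describe the 10 genes only. The Dref motif was held by 0 genes within 50 bp and by 2 in whole regions, the Trl motif by 2, and the CTCF and su(Hw) motifs by 1 each in whole regions. A longer window holds a short core more often, and these motif counts have no background share for the same windows. Leaving out 1 replicate asks for the peak in both others. It gave 5 to 6 genes with a start-site IDR peak, against 12.2% to 13.2% of all protein-coding genes. With the body included it gave 6 to 7, against 15.0% to 16.2%. It gave 5 to 6 recurring and 8 to 9 related genes, also against 12.2% to 13.2%, and means of 6 to 6.5. No paired analysis was possible because there is 1 group. The relaxed lists hold peaks and background together, and with no counts the precision of a single signal value is unknown.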
